A study of Mus musculus with 4 samples.

Results

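Dense clusters of open chromatin were taken from ATAC-seq peak lists of mouse liver. In ATAC-seq the Tn5 transposase cuts accessible DNA and inserts sequencing adaptors, so that peaks of cuts mark open regions. The clusters were chosen by the calls themselves. Peaks of the 4 deposited lists were merged where they overlapped or touched, regions called in 2 or more libraries were kept, neighbours were joined into groups where the gap between them was within a fixed limit, and every group of 5 or more regions was kept. The limit lay between the longest gap inside a cluster, 12456 bp, and the shortest beside one, 12623 bp. This gave 125 clusters with 705 regions, out of 28441 regions called in 2 or more libraries and 38853 merged regions in all. The other 27736 regions called in 2 or more libraries were 10919 in groups of 2 to 4 and 16817 with no neighbour within the gap.

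The tested livers came from mice with hypomorphic Pcca-/- (A138T), labelled PA (2 libraries), and the livers they were set against came from WT mice (2 libraries). Pcca encodes the alpha subunit of propionyl-CoA carboxylase, and loss of that enzyme causes propionic acidemia. All 4 libraries were made from frozen liver of female mice of the FVB background, aged 11 weeks and fed standard chow, and the series design calls the replicates biological. Among hepatocyte marker genes, 6 of 10 had a region called in all 4 libraries within 1 kb of a gene end. They included Ttr, Cps1 and Pck1, while Apoa1 had no region there in any library. Such a region was found for 1 of 14 Kupffer cell, 3 of 16 endothelial, 1 of 14 stellate cell, 1 of 10 bile duct cell and 0 of 13 blood cell markers. The share over all protein-coding genes was not computed, so these counts are a description and not a test of the tissue.

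Cis-regulatory elements are open because transcription factors displace nucleosomes there. Genes that define a cell type often have many such elements within a short stretch of the genome, in groups called locus control regions, stretch enhancers or super-enhancers, where hepatocyte factors such as HNF4A, FOXA proteins and C/EBP proteins bind. Gene families in tandem, such as the replication-dependent histone genes and tRNA genes, give dense groups of another kind, in which many of the open regions are promoters. A list of positions does not tell an active enhancer from a silencer, an insulator or a promoter of an unannotated transcript.

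The clearest view of sequence in these clusters came from promoters that lie inside a cluster region, since genomic sequence was held only around annotated starts. The histone clusters contained divergent pairs, in which an H2A gene and an H2B gene start back to back within 1 open region. The bases between the starts of 4 such pairs are shown because each pair accounts for a whole region of the histone clusters. They are written 5′ to 3′ towards the H2B gene, from RefSeq sequence of GRCm38.p6. Capitals mark the CCAAT box (CCAAT), the TATA box (TATAAA), the octamer (ATTTGCAT) that the factor OCT1 reads in H2B promoters, and the cyclic AMP response element, or CRE (TGACGTCA), each on either strand.
H2ac12 to H2bc12, chr13:22035644-22035820, plus strand: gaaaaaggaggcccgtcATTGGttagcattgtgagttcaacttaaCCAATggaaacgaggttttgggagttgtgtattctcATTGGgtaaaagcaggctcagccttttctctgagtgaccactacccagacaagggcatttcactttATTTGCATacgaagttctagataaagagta
H2ac8 to H2bc8, chr13:23571221-23571399, plus strand: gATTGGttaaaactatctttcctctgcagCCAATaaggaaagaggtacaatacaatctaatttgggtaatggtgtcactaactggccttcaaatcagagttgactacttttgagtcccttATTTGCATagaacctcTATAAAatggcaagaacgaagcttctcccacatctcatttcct
H2ac11 to H2bc11, chr13:22042950-22043197, plus strand: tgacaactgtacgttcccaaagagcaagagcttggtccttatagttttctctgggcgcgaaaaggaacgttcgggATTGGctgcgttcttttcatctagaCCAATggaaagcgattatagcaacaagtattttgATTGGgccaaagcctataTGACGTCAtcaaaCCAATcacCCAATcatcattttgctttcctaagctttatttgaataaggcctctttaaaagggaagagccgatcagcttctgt
H2ac7 to H2bc7, chr13:23574208-23574380, minus strand: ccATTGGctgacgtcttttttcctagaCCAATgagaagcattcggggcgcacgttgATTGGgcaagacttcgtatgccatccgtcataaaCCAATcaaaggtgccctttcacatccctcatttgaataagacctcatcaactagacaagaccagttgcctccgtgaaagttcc

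The stretches were 177, 179, 248 and 173 bases long. They held 3, 2, 5 and 4 CCAAT boxes in the order shown. The octamer stood once each between H2ac12 and H2bc12 and between H2ac8 and H2bc8, the TATA box once between H2ac8 and H2bc8, and the CRE once between H2ac11 and H2bc11.

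For comparison, the 250 bases before the start of 4 metabolic or regulatory genes with a promoter in a cluster are given, because these genes belong to the lists of liver pathways described further on. Capitals mark the CCAAT box, the nuclear receptor core (AGGTCA), the E-box (CACGTG), the GC box (GGGCGG), the CRE and the AP-1 element (TGANTCA), on either strand, where they were found.
Slc2a2, chr3:28697653-28697902, plus strand, nuclear receptor core and CCAAT box: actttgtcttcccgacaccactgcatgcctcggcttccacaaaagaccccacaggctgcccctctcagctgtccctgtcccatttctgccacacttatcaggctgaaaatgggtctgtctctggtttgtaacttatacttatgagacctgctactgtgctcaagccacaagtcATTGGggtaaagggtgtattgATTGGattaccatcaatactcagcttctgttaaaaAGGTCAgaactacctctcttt
Mlxipl, chr5:135089640-135089889, plus strand, E-box, GC box and CCAAT box: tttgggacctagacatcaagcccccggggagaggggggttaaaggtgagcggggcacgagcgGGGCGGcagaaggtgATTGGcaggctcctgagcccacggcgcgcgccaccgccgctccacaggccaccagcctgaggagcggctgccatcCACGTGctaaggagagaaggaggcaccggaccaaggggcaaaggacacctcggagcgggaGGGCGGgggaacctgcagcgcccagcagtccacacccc
Hlf, chr11:90390918-90391167, minus strand, CRE and GC box: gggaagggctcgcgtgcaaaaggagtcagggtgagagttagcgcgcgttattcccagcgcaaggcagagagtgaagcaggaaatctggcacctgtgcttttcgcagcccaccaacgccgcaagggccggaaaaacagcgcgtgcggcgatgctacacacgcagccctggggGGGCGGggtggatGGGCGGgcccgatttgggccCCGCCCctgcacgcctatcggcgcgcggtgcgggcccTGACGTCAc
Nr1i3, chr1:171213720-171213969, plus strand, E-box and AP-1 element: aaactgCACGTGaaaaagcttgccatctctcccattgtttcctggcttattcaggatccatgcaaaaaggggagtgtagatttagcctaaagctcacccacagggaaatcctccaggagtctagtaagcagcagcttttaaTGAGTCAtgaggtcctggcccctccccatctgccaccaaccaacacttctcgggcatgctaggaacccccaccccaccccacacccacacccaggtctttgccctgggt

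In all, 125 RefSeq promoter windows of 115 genes, each from 250 bases before to 50 after the start, had their start inside a cluster region. Windows of 1 autosome were not used here. Of the 19 histone windows, 15 (78.9%) held a CCAAT box, against 42.2% of the 8146 windows that started in other called regions and 38.5% of all 21045 windows. The TATA box stood in 12 of 19 (63.2%), against 5.68% and 12.7%. The octamer stood in 5 of 19 (26.3%), against 1.23% and 1.68%, and the CRE in 4 of 19 (21.1%), against 3.85% and 2.26%. The C/EBP element (TTGCNNAA) stood in 7 of 19 (36.8%), against 7.84% and 10.3%. The GC box stood in 9 of 19 (47.4%), against 70.7% and 46.7%. The 19 windows were related gene copies, so these shares are not independent observations. Windows of a divergent pair also overlap, so the same match was counted in both. This held for the octamer of H2ac12 and H2bc12, that of H2ac8 and H2bc8, and the CRE of H2ac11 and H2bc11. The TATA box matches in the windows of H2ac12, H2bc12, H2ac7 and H2bc7 did not lie wholly between the starts of the pair.

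The 106 other cluster promoters stood close to promoters elsewhere in these letters. The CCAAT box was in 48.1% of them, against 42.2% of the windows in other called regions, the GC box in 71.7% against 70.7%, the E-box in 14.2% against 11.1%, and the nuclear receptor core in 16.04% against 11.5%. The TATA box was in 7.55% against 5.68%. The C/EBP element (TTGCNNAA) was in 9.43% against 7.84% and the AP-1 element in 5.66% against 4.08%. The HNF4 element (CAAAGTCCA) was in 0 of the 106 against 0.454% of the windows in other called regions. The FOXA element (TGTTTAC) was in 1 against 2.43%, and the D-box (TTANGTAA) in 1 against 1.30%. A match is a string of letters in a window and not a bound site. Where the same bases belong to 2 elements, both were counted.

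**Figure D1:**
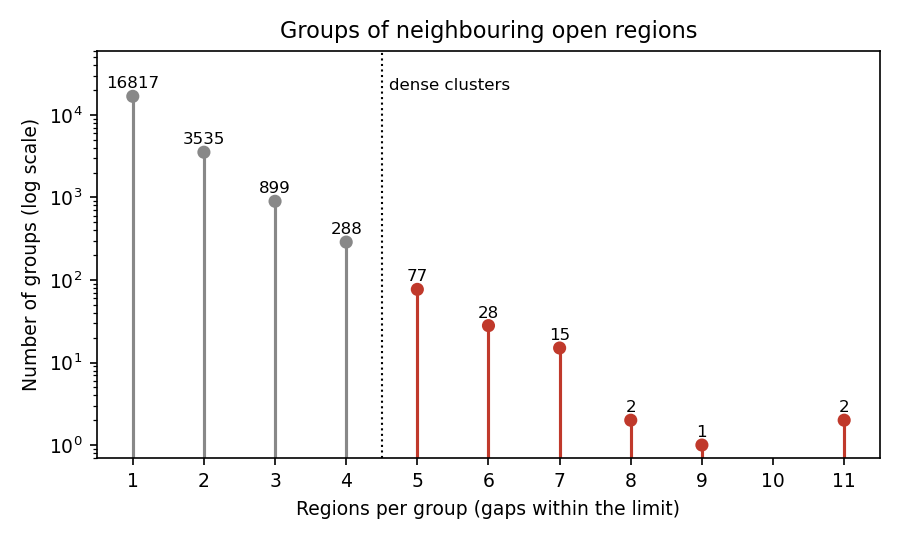
Number of groups (log scale) by regions per group, after joining regions called in 2 or more libraries over gaps within the limit; red points are the dense clusters. Beside 288 groups of 4, just below the minimum, there were 77 of 5, 28 of 6 and 15 of 7, and 5 groups held 8 or more.

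Most dense clusters were near the minimum size. There were 77 clusters of 5 regions, 28 of 6, 15 of 7, 2 of 8, 1 of 9 and 2 of 11, as the plot of groups by size shows. They spanned a median of 33.0 kb (range 17.1 to 62.7) and together covered 4284.609 kb. Open regions took up a median of 7.53% of the span, and the median gap between neighbours was 7004.5 bp. The regions themselves had a median length of 439 bp, against 441 bp outside. Size and spacing come from the rule and are descriptions. Near the limit on the gap, 106 of 580 inner gaps were longer than 10 kb, and 20 of 248 gaps beside clusters were shorter than 15 kb. The groups of 4 just below the minimum had a median span of 24.1 kb, against 29.6 kb for clusters of 5. 

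Clusters lay on every chromosome listed. The share of regions in clusters was highest on chromosome 8 (61 of 1493, 4.09%) and chromosome 13 (59 of 1465, 4.03%), which holds the histone and tRNA loci described next. It was lowest on chromosome 17 (10 of 1123, 0.890%) and the X chromosome (7 of 726, 0.964%).

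Cluster regions were less often at genes' ends than other open regions. Of the 705, 150 (21.3%, exact 95% interval 18.3 to 24.5) had a protein-coding gene end within 1 kb, against 33.5% outside. Another 243 (34.5%) lay inside a gene, against 34.1%, and 312 (44.3%, 40.5 to 48.0) lay between genes, against 32.4%. In the plot of positions the share near a gene end was 28.6% in groups of 2 to 4 and 36.8% among regions with no neighbour. In the 5 clusters of 8 or more regions, which include histone loci, it was 36.2% of 47 regions, close to that of regions with no neighbour. By annotated starts, not used here for chromosome 18, 20.2% of cluster regions were within 1 kb of a start, against 30.2% of the others. The intervals cover the counting of regions only, and regions are not replicates. No region of 52 clusters was near a gene end, and 23 clusters lay wholly inside 1 gene, among them Pcx, Ppargc1a, Pde4d, Lifr and Nrg1.

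**Figure D2:**
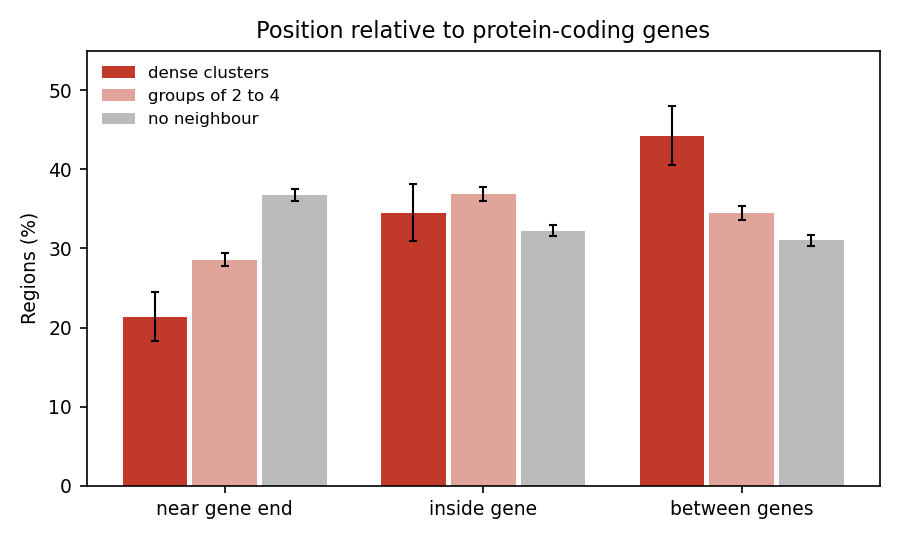
Share of regions (%) near a protein-coding gene end (within 1 kb), inside a gene and between genes, for dense clusters, groups of 2 to 4 and regions with no neighbour; bars are shares and error bars exact 95% binomial intervals. Near gene ends the share was 21.3% over all clusters, against 28.6% in groups of 2 to 4 and 36.8% with no neighbour; in the clusters of 8 or more regions alone, not drawn, it was 36.2%.

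The clusters overlapped 196 of 21631 protein-coding genes (0.906%). There were 28 clusters with no such gene, 55 with 1, 33 with 2 to 4 and 9 with 5 or more. Of the genes, 27 encode histones. The clusters with most histone genes lay on chromosome 13. The largest, at 23530855 to 23593578, held 11 regions over 62.7 kb and 15 genes of H1, H2A, H2B, H3 and H4, with 10 of the regions at a gene end. PA 1 called 8 of its regions, PA 2 9, WT 1 10 and WT 2 11. Both PA libraries were thus below both WT libraries in this cluster. Places of peaks are given as the percent of the way down each deposited list, whose line order is neither genomic nor explained by the submitters' texts. Its region at the start of H4c8, an H4 gene, stood 7.28% down the PA 1 list, 5.87% down PA 2, 8.88% down WT 1 and 6.69% down WT 2. The region between H2ac8 and H2bc8, whose sequence is shown above, stood at 27.9% and 21.9% in PA and at 17.7% and 16.4% in WT, and so further down in both PA libraries. The region at the start of H4c6 stood at 25.7% and 30.5% in PA and at 43.9% and 46.4% in WT, nearer the top in both PA libraries. A WT-only region of the cluster lay beside H1f3, the gene of a linker histone.

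The second histone cluster, at 22006200 to 22051295, had 9 regions with 5 histone genes, Prss16, the gene of a thymus serine protease, and 7 tRNA genes. PA 1 called 6 of its regions and PA 2 8, against 9 in each WT library. The region between H2ac11 and H2bc11 stood at 8.24% and 8.81% in PA and at 11.7% and 9.77% in WT. Another cluster, at 23730478 to 23761564, held 7 histone genes in 6 regions, and PA 1 called 5, PA 2 6, WT 1 5 and WT 2 4. One of its regions, at the start of H1f2, was PA-only, in the opposite direction to the first. Histone genes are near-identical copies and the filters on reads that match several places are not given, so which copy a peak came from is uncertain.

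tRNA genes, which RNA polymerase III transcribes from promoters inside the gene, made up much of another chromosome 13 cluster. It ran from 23423721 to 23453837 beside Abt1 and held 14 tRNA genes, and 5 of its 6 regions overlapped 1 or more of them. In the second histone cluster 3 of 9 regions overlapped tRNA genes, and in a cluster at Fbxo31 on chromosome 8 1 of 5 did. The highest-placed tRNA region of the Abt1 cluster, at 23432498 to 23433145, stood at 8.87% in PA 1, 7.53% in PA 2, 10.2% in WT 1 and 10.8% in WT 2. Of the 9 tRNA regions, 7 were called in all 4 libraries, as were 61.8% of all regions called in 2 or more libraries. tRNA genes also occur in many near-identical copies.

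The lists of liver and cell type genes overlapped clusters at few loci, so the counts are given beside the 0.906% of all protein-coding genes. Glucose and glycogen genes were 3 of 23, liver transcription factors 2 of 30, immediate early and signalling genes 4 of 37, bile acid and xenobiotic genes 1 of 25, fatty acid and triglyceride genes 1 of 30, amino acid and urea cycle enzymes 1 of 32, circadian clock genes 1 of 21 and secreted plasma proteins 1 of 67. Bile duct cell markers were 1 of 10 and widely expressed genes 1 of 26. Propionate and branched-chain amino acid breakdown (26 genes), cholesterol (21), Kupffer cell (14), endothelial (16), stellate cell (14) and blood cell markers (13) had 0. Within 50 kb of a cluster, where 445 genes lie (2.06%), the named additions were Onecut1, Alb, Afp, Irs2, Elovl5, Insig1, Krt18, Muc1, Eef1a1 and Vcp.

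Among the glucose genes, Slc2a2 encodes the main glucose transporter of hepatocytes. Its cluster on chromosome 3 had 7 regions over 48.8 kb, of which 4 lay inside the gene, 1 at its start and 2 beyond it. PA 1 called 5, PA 2 7, WT 1 6 and WT 2 7. The region at 28721770 to 28722203, inside the gene, stood at 14.5% in PA 1, 18.6% in PA 2, 13.6% in WT 1 and 14.6% in WT 2. The start itself, whose sequence is shown above, was called in PA 2, WT 1 and WT 2, at 26.5%, 30.0% and 28.7%, and not in PA 1. Pcx, the gene of pyruvate carboxylase, held 8 regions inside its span on chromosome 19. PA 1 and WT 1 called 7 and PA 2 and WT 2 6. They stood between 47.0% and 97.8% of the way down the lists, and the PA-only region at 4545858 was at 97.8% in PA 1 and 94.9% in PA 2. Ppargc1a, a coactivator of gluconeogenic and mitochondrial genes, held all 5 of its regions inside the gene, called 5 and 5 times in PA and 4 and 5 times in WT.

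In bile acid metabolism, Cyp7a1, the rate-limiting enzyme of bile acid synthesis, had 7 regions over 39.8 kb on chromosome 4, 1 at a gene end and 6 between genes. PA 1 called 6 and each of the other libraries 7. The region at 6275577 to 6276028, at a gene end, stood at 35.2% in PA 1, 17.8% in PA 2, 26.5% in WT 1 and 25.9% in WT 2. Nr0b2 encodes SHP, a repressor of Cyp7a1, and shared a cluster of 5 regions with Nudc. Its regions were called 5 and 4 times in PA and 4 and 4 times in WT. Nr1i3, the xenobiotic receptor CAR, shared a cluster of 5 with Apoa2, the gene of an apolipoprotein, and its regions were called 3 and 5 times in PA and 5 and 3 times in WT. Mlxipl encodes ChREBP, the carbohydrate-responsive activator of lipid synthesis genes, and its cluster with Vps37d had 5 regions, each library calling 4. The Mlxipl start stood at 48.9% and 30.0% in PA and at 41.1% and 31.8% in WT. In these clusters the PA and WT counts overlapped.

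Hlf, a PAR bZIP factor of circadian output, held 5 regions inside the gene and 1 at its start over 48.9 kb of chromosome 11. PA 1 called 5 and the other 3 libraries 6. Its highest-placed region, at 90355133 to 90355600 inside the gene, stood at 13.2% and 5.85% in PA and at 8.59% and 9.46% in WT. Ahcy, the enzyme that breaks down S-adenosylhomocysteine, had 5 regions, called 3 and 5 times in PA and 5 and 4 times in WT. Krt8, a keratin of hepatocytes and bile duct cells, had 5 regions on chromosome 15, all called in all 4 libraries.

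The AP-1 genes and related signalling genes were the 4 overlapped members of their list. Jund, with Pgpep1 and Lsm4, was in a cluster of 8 regions on chromosome 8, called 6 and 8 times in PA and 7 and 8 times in WT. Its region at a Jund end, at 70698622 to 70699065, stood at 3.61% in PA 1, 1.63% in PA 2, 2.70% in WT 1 and 1.68% in WT 2, near the top of every list. Fosb was in a cluster of 7 with Rtn2 and Ercc1, called 5 and 6 times in PA and 6 and 7 times in WT. Junb was in a cluster of 5 with Prdx2 and Hook2, called 2 and 5 times in PA and 4 and 5 times in WT. Socs2, a feedback inhibitor of growth hormone signalling, had 5 regions, called 5 and 4 times in PA and 4 and 5 times in WT.

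Other clusters among the largest had no gene of these lists. On chromosome 18, 11 regions over 59.5 kb overlapped Tmed7, a cargo receptor of the early secretory pathway, and Eif1a, a translation initiation factor, with 9 of the regions between genes. PA 1 called 8 and PA 2 11, against 9 in WT 1 and 7 in WT 2. Its PA-only region at 46644442 stood at 36.7% in PA 1 and 22.6% in PA 2, and the other, at 46621470, at 66.0% and 74.4%. Clusters of 7 regions lay at Degs1, the gene of dihydroceramide desaturase (6 and 7 calls in PA, 6 and 6 in WT), near Pls3, the gene of an actin-bundling protein, on the X chromosome (7 and 7 in PA, 6 and 7 in WT), and 183684 bp from Lacc1 (5 and 7 in PA, 6 and 7 in WT). At Hmox1, the gene of heme oxygenase 1, and Mcm5, a subunit of the replicative helicase, 6 regions were called 3 and 6 times in PA and 5 and 6 times in WT.

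Other clusters lay near a gene of interest, most of them without overlapping a protein-coding gene. The one nearest Alb on chromosome 5, with 6 regions over 35.9 kb, ended 10474 bp from the albumin gene and lay on the side of its start. PA called 6 and 6 and WT 5 and 6. Its region at 90447566 to 90448002 stood at 32.6% in PA 1, 17.5% in PA 2, 31.2% in WT 1 and 21.3% in WT 2. A cluster 6365 bp from Lepr, the leptin receptor gene, had 6 regions, all called in all 4 libraries. A cluster 18238 bp from Crot, the gene of a peroxisomal carnitine acyltransferase, had 7 regions, all called in all 4. A cluster that overlapped Fam214a and lay 21698 bp from Onecut1, the gene of the liver factor HNF6, also had 7 of 7. Near Irs2, a mediator of insulin signalling, a cluster 10134 bp away had 6 regions and called 4 and 6 in PA and 5 and 5 in WT. Near Insig1, a sterol-regulated brake on cholesterol synthesis, a cluster 15548 bp away called 3 and 5 in PA and 4 and 5 in WT. On chromosome 18, Mir122, the gene of the most abundant hepatocyte microRNA, lay 4436 bp from a cluster of 5 regions, called 5 and 3 times in PA and 5 and 5 times in WT. In all, 21 of the 28 clusters with no protein-coding gene had one within 50 kb.

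**Figure D3:**
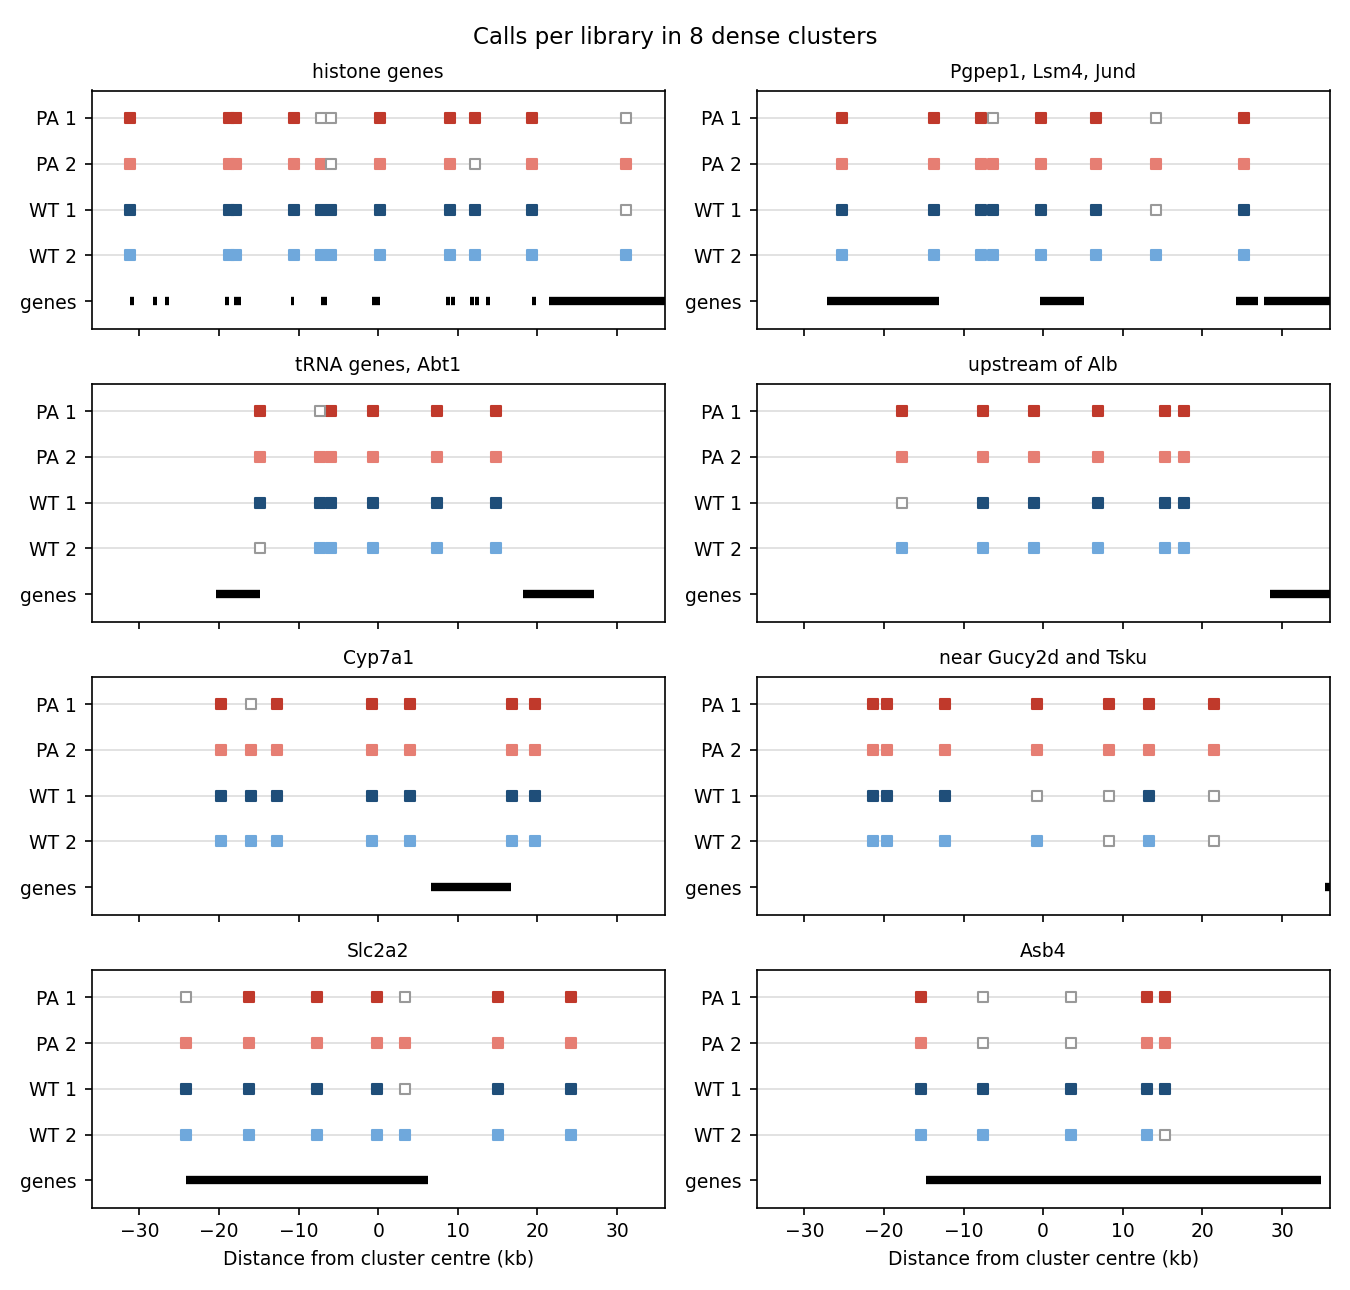
Calls in 8 dense clusters, by distance from the cluster centre (kb); each row is a library, a filled square is a region called in that library, an open grey square a region not called, and black bars are protein-coding genes. The histone cluster shows 8 and 9 calls in PA 1 and PA 2 and 10 and 11 in WT 1 and WT 2, the cluster near Gucy2d and Tsku 7 in each PA library and 4 and 5 in WT, and the Asb4 cluster 3 in each PA library and 5 and 4 in WT.

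The study compared PA with WT livers, and the numbers of cluster regions called differed by less than the spread between the PA libraries. PA 1 called 553 of 705 cluster regions (78.4%), PA 2 648 (91.9%), WT 1 613 (87.0%) and WT 2 612 (86.8%). The mean was 600.5 ± 67.2 regions in PA and 612.5 ± 0.707 in WT (SD, n = 2 each). These calls also chose the regions, so the values are a description with no test. Outside clusters the shares were 80.8%, 91.7%, 84.3% and 85.2%, in the same order. PA 1, which has the shortest list (25683 peaks), was lowest in both. Relative to all its calls in regions found in 2 or more libraries, each PA library had fewer in clusters than each WT library. The share was 2.41% in PA 1 and 2.49% in PA 2, against 2.56% in WT 1 and 2.52% in WT 2, a mean of 2.45 ± 0.0537% in PA and 2.54 ± 0.0221% in WT (SD, n = 2 each). The groups did not overlap on this share, and they overlapped on the raw number and on the share of cluster regions called. The same calls chose the clusters, so this share too is a description with no test. The PA minus WT difference of -12 regions turned to 19.5 without PA 1. A region not called may be open in fewer cells or less open in each, and the lists cannot tell these apart. Depth is unknown.

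Each library's own peaks made clusters under the same gap and minimum. PA 1 made 66 clusters alone, PA 2 147, WT 1 99 and WT 2 87, a mean of 106.5 ± 57.3 in PA and 93.0 ± 8.49 in WT (SD, n = 2 each, exact two-sided permutation p = 1, where 0.3333 is the smallest that 2 against 2 libraries allow). The difference of 13.5 clusters turned to -27 without PA 2. With every list held to the 25683 lines of the shortest, PA 1 made 66, PA 2 119, WT 1 97 and WT 2 87, so PA 1 and PA 2 stayed on either side of both WT libraries. The lists were cut by line, and what orders the lines is unknown, so the cut made length equal but not depth. Of the 125 clusters, 26 were met by clusters of all 4 libraries made alone, 24 by 3, 47 by 2, 24 by 1 and 4 by none. The last 4 exist only when libraries are pooled.

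**Figure D4:**
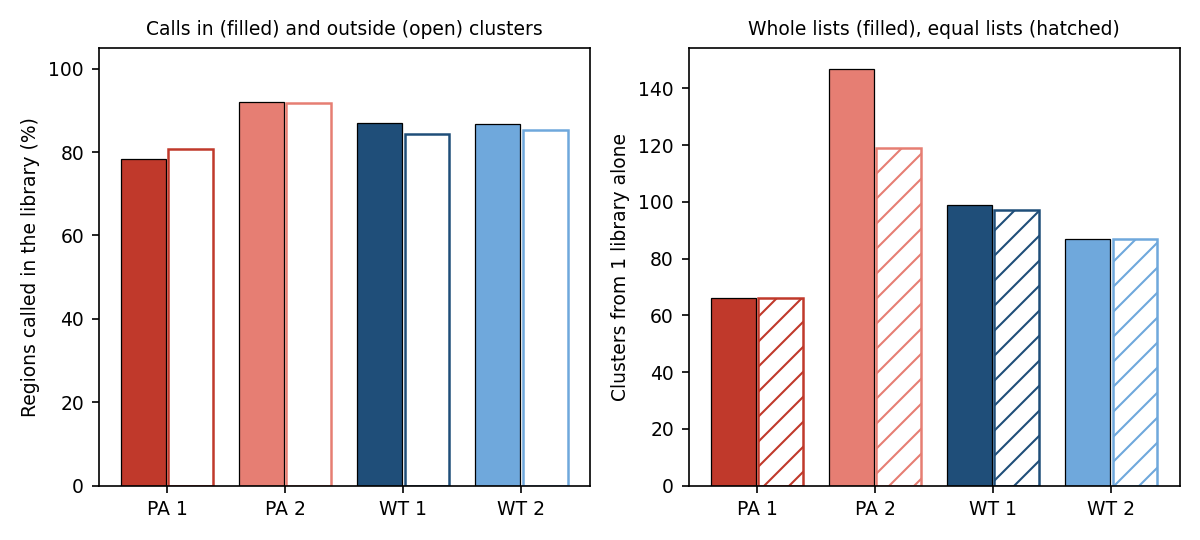
Left, share of cluster regions (filled) and of other regions (open) called in each library (%), PA left of WT. Right, clusters made from each library's own peaks, with whole lists (filled) and lists held to the shortest length (hatched); PA 1 made 66 in both cases and PA 2 147 and 119, on either side of the WT libraries.

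Calls were also read in libraries whose calls were not counted in choosing the clusters. Clusters were rebuilt with the calls of each library left out, on the same merged regions, and its calls were read in them. Its peaks still took part in merging, and so in the borders of the regions. PA 1 called 76.2% of cluster regions against 79.0% of the others, PA 2 90.7% against 90.4%, WT 1 85.3% against 82.7% and WT 2 86.1% against 83.7%. Clusters minus other regions was -2.81 and 0.265 percentage points in PA and 2.58 and 2.37 in WT, a mean of 0.603 ± 2.501 (SD, n = 4). Both WT libraries were above both PA libraries in this difference, which was not tested between the genotypes. Each library was read in its own set of clusters, chosen by its fellow library and both libraries of the other genotype. The genotype of a library and the choice of its clusters therefore cannot be told apart. Clusters made from the PA libraries alone (40, with 223 regions) had 84.3% of their regions called in both WT libraries, against 82.3% outside. Those made from the WT libraries alone (43, with 240 regions) had 80.4% called in both PA libraries, against 83.3%. Of these, 24 of the 40 and 24 of the 43 met a cluster of the other genotype.

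Regions called in all 4 libraries were 436 of 705 (61.8%), and the share over all regions called in 2 or more libraries was 61.8%. Another 144 (20.4%) were called in 3 and 125 (17.7%) in 2. PA 1 alone was missing in 72 regions (10.2%, against 7.83% outside), PA 2 alone in 16, WT 1 alone in 30 and WT 2 alone in 26. In 10 clusters, among them those at Krt8, Mpc1, Sertad3 and Slc25a30, every region was called in all 4 libraries.

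Shares of regions restricted to 1 genotype stood near those over all regions. PA-only regions, which had a peak in PA 1 and PA 2 but in no WT library, were 25 of 705 (3.55%, exact 95% interval 2.308 to 5.19), against a background of 4.62% over all regions called in 2 or more libraries. WT-only regions were 21 (2.98%, 1.85 to 4.52), against 2.7%. Together they were 46, against a background of 7.32%. PA-only regions stood low in their own lists and WT-only regions near the middle, at medians of 72.9% in PA 1 and 69.2% in PA 2 for PA-only regions and of 53.3% in WT 1 and 57.6% in WT 2 for WT-only regions. In the upper 50% of both lists were 6 of the 25 PA-only and 8 of the 21 WT-only regions. Outside clusters the medians were 81.3% and 81.9% for PA-only and 71.2% and 70.5% for WT-only regions. There were 88 clusters with no restricted region, 28 with 1 and 9 with 2.

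The 9 clusters with 2 restricted regions included 4 with 1 of each kind, at Rgs8, Gm44812, Mthfsl and near Ahr, and 5 with both of the same kind. Those of the same kind were at Tmed7, Adap2, Minpp1 and near Gucy2d and Tsku for PA-only regions, and at Asb4 for WT-only regions. The cluster near Gucy2d and Tsku, the gene of a secreted signalling protein, had 7 regions on chromosome 7, and its PA-only regions at 98413075 and 98426225 stood at 55.8% and 77.1% in PA 1 and at 42.6% and 53.3% in PA 2. At Adap2, in a cluster with Rnf135 and Rhot1, the gene of a mitochondrial transport GTPase, the PA-only regions at 80158994 and 80202235 stood at 52.0% and 92.5% in PA 1 and at 45.5% and 87.1% in PA 2. At Minpp1, the gene of an inositol polyphosphate phosphatase, 6 regions were called 6 and 4 times in PA and 2 and 4 times in WT, and the PA-only regions at 32522950 and 32550448 stood at 63.9% and 86.4% in PA 1 and at 63.1% and 69.2% in PA 2. The Asb4 cluster lay 69691 bp from Pdk4, the gene of a pyruvate dehydrogenase kinase. Its WT-only region at 5390299 covered an annotated Asb4 start inside the gene, more than 1 kb from either gene end. That region stood at 73.2% in WT 1 and 84.1% in WT 2, and the other WT-only region at 89.7% and 88.4%.

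A few restricted regions stood high in their lists. The WT-only region of Rgs8, the gene of a regulator of G protein signalling, at 153698361 to 153698793, stood at 6.90% in WT 1 and 7.72% in WT 2. Its neighbour, 419 bp away at 153697523 to 153697941, was called in all 4 libraries. That neighbour stood at 17.2% in PA 1, 15.95% in PA 2, 5.15% in WT 1 and 8.897% in WT 2. Whether both regions mark the same open site, shared by both genotypes, was not tested. The PA-only region inside Bcl3, the gene of an NF-kappa-B cofactor, was at 20.6% in PA 1 and 21.4% in PA 2. The PA-only region inside Lifr, the gene of a cytokine receptor subunit, was at 27.3% and 17.4%. At Gm44812 a PA-only region, at 70525385, and a WT-only region, at 70524750, were 198 bp apart, at 19.8% and 21.0% in PA and at 22.1% and 33.5% in WT. Whether this pair too marks the same open site, shared by both genotypes, was not tested. These restricted regions were picked for their place and are descriptions.

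Counted over clusters, both PA libraries called more regions than both WT libraries in 6 of 125 (4.8%). Over all 413 groups of 4 or more regions, which include the 125 clusters themselves, the share was 7.02%. Both WT libraries called more than both PA libraries in 12 of 125 (9.6%), against the same background of 7.02%. The 6 were at Adap2, Evi5, Slc38a4 and Mthfsl and near Gucy2d and Gcm1. The 12 included the 2 larger histone clusters, Asb4, Mif, Bspry, Tgm2, Slc2a9 and Adgrv1. On the mean of the pair, PA was ahead in 36 clusters, WT in 51, and they were equal in 38.

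The place of a peak in its list, a measure that the rule did not use, was described for each library. The lists are not in genome order, and the sources used here do not say what orders the lines, so a smaller percent means only a place nearer the top. Between genes, cluster regions stood at a median of 48.7% in PA 1, 37.4% in PA 2, 39.4% in WT 1 and 40.7% in WT 2, against 60.9%, 58.0%, 58.6% and 63.3% for regions outside clusters. For these regions between genes, clusters minus outside was -18.6 ± 4.49 percentage points (SD over 4 libraries), and it was negative in all 4 libraries. Restricted to regions called in all 4 libraries, an alternative chosen after seeing the data, it was -12.1 ± 2.72. Regions between genes in groups of 2 to 4 lay in between, at 54.97%, 49.9%, 53.1% and 54.8%, so the distance from the clusters to these was smaller in each library. Inside genes the cluster medians were 46.1%, 41.1%, 47.8% and 46.0%, against 56.2%, 52.9%, 54.9% and 56.9%. Near gene ends they were 20.1%, 19.5%, 24.5% and 19.7%, against 23.8%, 25.8%, 28.8% and 26.2%. Over all positions the cluster medians were 40.8%, 33.3%, 38.2% and 37.4%, against 45.4%, 45.1%, 46.6% and 47.6% outside. Among regions called in all 4 libraries, over all positions, PA 1 went the other way, at 36.3% against 35.9%. In PA 2, WT 1 and WT 2 these stayed nearer the top in clusters, at 27.7%, 32.7% and 30.4% against 32.6%, 36.8% and 37.1%. In the plot of places the clusters' medians were nearer the top than those of other regions at each kind of position in PA and WT alike.

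**Figure D5:**
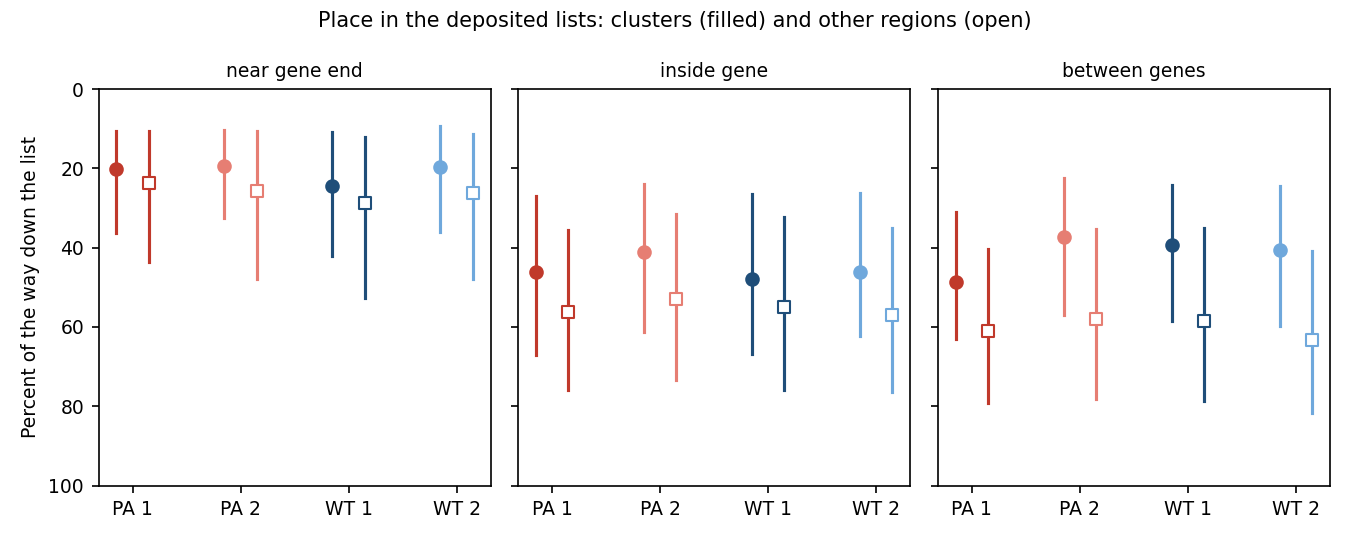
Place in the deposited list (percent of the way down, top of the axis is the top of the list) for cluster regions (filled circles) and other regions (open squares), by position relative to genes and by library; points are medians and bars run between quartiles. Between genes cluster medians were 37.4% to 48.7% and those of other regions 58.0% to 63.3%.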

How the data were processed

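Per the labels, ATAC-seq was done by the Omni-ATAC procedure on frozen livers, 2 PA and 2 WT libraries. The deposited files list peak positions and hold no scores (other values), in GRCm38/mm10 coordinates given here 1-based. The submitters' processing notes name bedtools 2.31.0, HOMER 4.10, R 4.1.2, SAMtools 1.17, Bowtie2 2.5.1 and cutadapt 3.5, with no roles. The sources used here do not give the peak caller, its threshold or the read filters, and depth is unknown, so a list records only whether a window passed a threshold. Groups came from each sample's title.

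Regions were joined where the gap was at most 12.5 kb. Merging, joining and counting used Python 3.11.15 with pandas 2.3.3, NumPy 2.4.6 and SciPy 1.17.1, checked on simulated peak lists. Genes were those of RefSeq GRCm38.p6 (21631 protein-coding); all 405 genes of the 16 lists were matched. Named genes were those overlapped by the 15 clusters with the most regions, by clusters with 2 or more PA-only or WT-only regions, by the 5 clusters with the most regions in all 4 libraries, and list genes in any cluster; others were chosen after their values were seen. The members and lists were chosen with earlier results of these data known, and the rebuilt clusters of held-out libraries and single genotypes, the tRNA and microRNA genes and the genes within 50 kb were looked at after seeing the data. Shares have exact Clopper-Pearson 95% intervals. The number of clusters each library made alone was compared by exact permutation over the libraries; calls that the rule used are described without a test. Alternatives changed the gap, the minimum, the libraries required, the list length and the distance to genes, and left out each library.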

Additional observations from a re-analysis of the deposited data

How the results depend on the processing

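The numbers of clusters and genes follow from the settings of the rule. With a gap of 5 kb there were 0 clusters and 0 regions. With 25 kb there were 811 clusters, 5028 regions, 186 PA-only and 165 WT-only regions, 29.4% near a gene end and 2064 genes. A minimum of 4 regions gave 413 clusters, 1857 regions, 69 PA-only and 60 WT-only regions and 627 genes. A minimum of 8 gave 5 clusters, 47 regions, 3 PA-only and 2 WT-only regions, 36.2% near a gene end and 27 genes. Requiring 3 libraries gave 59 clusters, 326 regions, 73.6% in all 4 libraries and 89 genes, and leaves no restricted region by construction. Requiring 1 gave 381 clusters, 2198 regions, 57 PA-only and 55 WT-only regions, 45.5% in all 4 and 569 genes, and turned the PA minus WT difference in cluster regions called to 39.5, from -12. Without regions near gene ends there were 63 clusters, 352 regions, 10 WT-only regions and 35 genes. A distance of 2 kb gave 24.5% near a gene end. Leaving out each library gave 78 to 99 clusters, 428 to 549 regions (fewest of both without PA 2), a difference of -34 to 19.5 (19.5 without PA 1), 38 (without WT 1) to 48 PA-only (without WT 2) and 30 to 62 WT-only regions (62 without PA 2), 70.4% to 76.5% called in every remaining library, 19.0% to 21.5% near a gene end and 125 (without PA 2) to 151 genes, with 127 without WT 1. PA-only and WT-only regions were computed only where their own genotype kept both libraries. Absence was then required in 1 library of the other genotype only. This looser definition makes these counts unlike those from all 4 libraries. For clusters made by each library alone, PA minus WT was 13.5, and from -27 (without PA 2) to 54 with a library left out. The directions of both differences therefore rest on PA 1 and PA 2, which lie on either side of WT. The cause was not tested. With lists of equal length there were 115 clusters, 646 regions, 18 PA-only and 21 WT-only regions, and the differences were -18 in regions called and 0.5 in own clusters.

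The replicate numbers showed no sign of pairing the libraries, with a correlation of their differences over all regions of -0.0069. Such a value, from presence calls alone, cannot tell whether libraries were handled in pairs. With the replicate block, the difference was -12 in cluster regions called and 13.5 in own clusters, and exact permutation within replicate numbers, whose smallest p is 0.5, gave p = 1 for the second. Peak lists limit these results to presence above an unknown threshold, and the exact permutation of 2 against 2 libraries cannot go below p = 0.3333.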
